A study of Mus musculus with 20 samples.

Results

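*Xdh*, *Ada*, *Adk*, *Nt5e*, *Hprt*, *Gda*, *Ampd2*, *Ampd3* and *Aprt* encode enzymes by which cells take purines apart or recover them. These 9 genes, of the 17211 genes with deposited values, were taken by name, and they were chosen with the difference between *Winnie* and C57BL/6 mouse brains already known. Brain RNA was sequenced from 20 mice aged 14 weeks to ask how gene expression in the brain differs in mice with spontaneous colitis. *Winnie* mice carry a mutation in *Muc2*, the main mucin of the intestinal mucus, and C57BL/6 mice without it served as controls. Each genotype had 10 brains, with 5 labelled female and 5 labelled male, and no mouse is labelled as treated. The study's text states fewer brains in each genotype and does not say which of the labelled ones they were, so every labelled brain was used. Whole tissue was used, so fewer cells of a type and less RNA per cell cannot be told apart.

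Purine nucleotides are built *de novo* at high energy cost, and most tissues, the brain above all, also reuse the bases that breakdown releases. Adenosine is made from AMP outside the cell by the ectonucleotidase encoded by *Nt5e*, and is then either returned to AMP by adenosine kinase (*Adk*) or turned into inosine by adenosine deaminase (*Ada*). Hypoxanthine, guanine and adenine are recovered by the phosphoribosyltransferases of *Hprt* and *Aprt*, while xanthine dehydrogenase (*Xdh*) oxidises hypoxanthine and xanthine to urate, and in brain adenosine is known as a signal that dampens neuronal firing.

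The values are CPM, the counts of a gene scaled so that every brain has the same total. The brains held 16540303 to 23923769 reads (medians 19176351 for C57BL/6, 19075333 for *Winnie*), and 3 reads corresponded to between 0.125 and 0.181 CPM. The S numbers that end the sample descriptions ran from 1 to 10 in C57BL/6 and from 11 to 20 in *Winnie* mice. What they number is not stated, and anything that follows them cannot be told apart from genotype. The sex labels went against *Xist* and *Ddx3y*, RNAs of the inactive X and of the Y chromosome, in 9 of 10 C57BL/6 brains and in 0 of 10 *Winnie* brains, so sex is named here only as labelled. *Muc2* had no value and was not analysed here. Differences were taken from limma on log2(CPM + 0.5) over all genes, with a false discovery rate (FDR) under 0.05 as the threshold, and a log2 fold change is *Winnie* minus C57BL/6 on that scale, which understates the change of genes with few reads.

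At this threshold 2.52% of all genes differed between the genotypes in either direction and 1.52% were higher in *Winnie* mouse brains. Of the 9 purine genes, *Xdh* and *Ada* were past it, both higher, and the other 7 were not. As the genes were selected on this contrast, the count of 2 of 9 is a description and nothing is read from it. At an unadjusted p under 0.05 in limma the count was 4 of 9, with *Ampd3* and *Aprt* added, beside 17.6% of all genes. Log2 fold changes were positive for 5 genes and negative for 4, with a median of 0.02 against 0.00 over all genes. The groups overlapped for each of the 9 genes, whereas 0.0291% of all genes had groups that did not overlap.

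**Figure D1:**
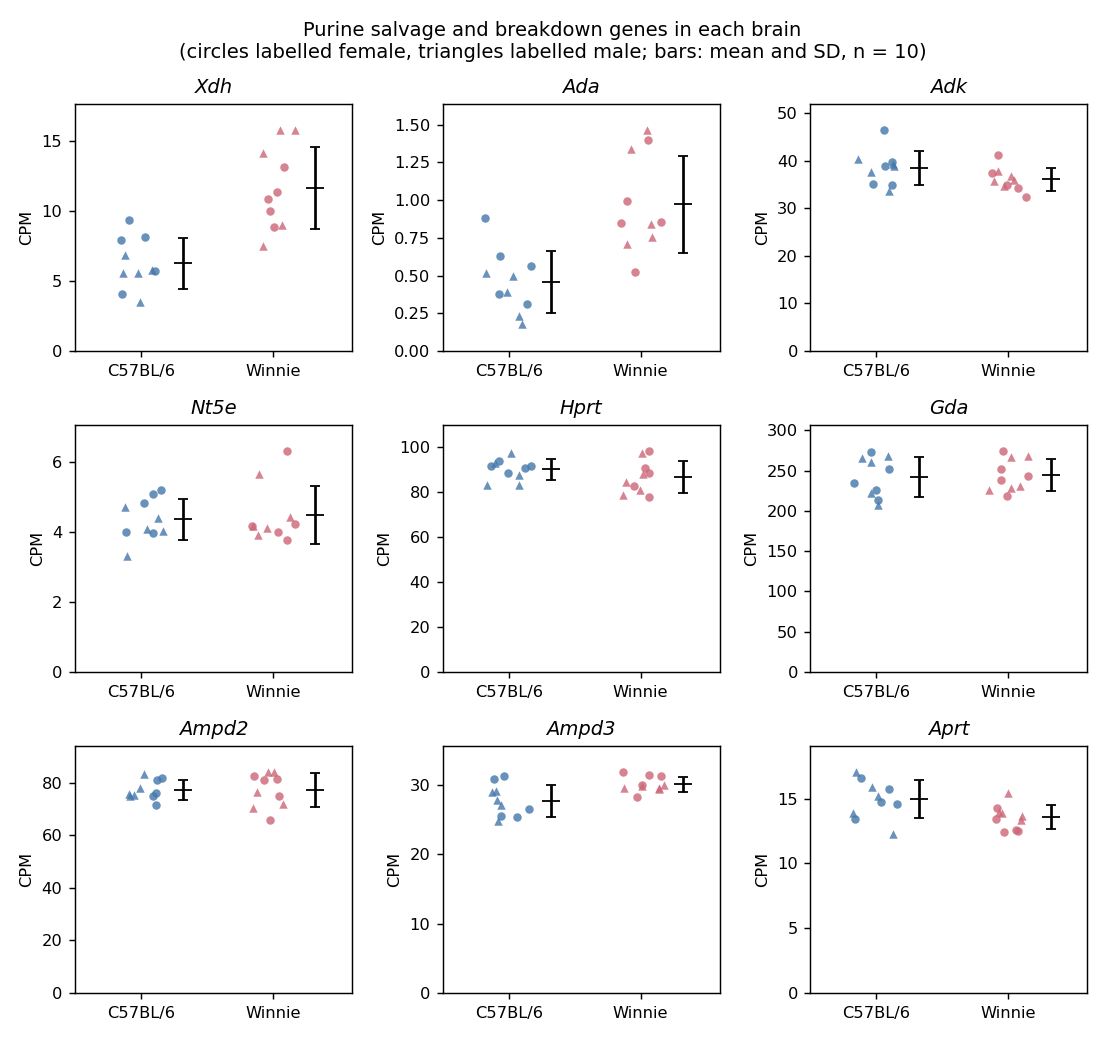
Each panel plots the CPM of a gene on a vertical axis that starts at 0, with C57BL/6 brains in blue, *Winnie* brains in red, circles for brains labelled female, triangles for brains labelled male, and bars for the mean and SD of 10 brains. *Xdh* and *Ada* sit higher in *Winnie* brains with some overlap, and the clouds of the other 7 genes lie at similar heights.

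*Xdh* (ENSMUSG00000024066, chr17:73883895-73950196, minus strand, GRCm38) encodes the enzyme that forms xanthine and then urate in purine breakdown. In C57BL/6 brains labelled female its values were 7.89, 9.33, 5.73, 8.13 and 4.08 CPM, and in those labelled male 5.58, 3.49, 6.83, 5.81 and 5.59 CPM. In *Winnie* brains labelled female they were 10.8, 8.85, 10.01, 11.3 and 13.1 CPM, and in those labelled male 15.7, 14.1, 15.7, 8.98 and 7.49 CPM. All 10 *Winnie* brains were above the C57BL/6 median of 5.77 CPM, and 7 were above the highest C57BL/6 brain. The mean was 6.25 ± 1.82 CPM in C57BL/6 and 11.6 ± 2.93 CPM in *Winnie* mice (SD, n = 10), a ratio of 1.86. The log2 fold change was 0.86 (SE 0.16, 95% interval 0.52 to 1.20, limma FDR = 0.0112). Between 62 and 313 reads stood behind a brain's value, and their counting error alone would give a coefficient of variation (CV, the SD over the mean) of 7.66%, whereas the CV between brains was 29.1% in C57BL/6 and 25.2% in *Winnie* mice.

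*Ada* (ENSMUSG00000017697, chr2:163726584-163750239, minus strand, GRCm38) encodes adenosine deaminase, which converts adenosine and deoxyadenosine to inosine and deoxyinosine. The window from 250 bases before to 50 bases after its RefSeq start is shown because *Ada* is the enzyme of the adenosine branch that was higher, with matches to the GC box (GGGCGG on either strand) in capitals.
Ada, chr2:163750190-163750489, minus strand, GRCm38.p6: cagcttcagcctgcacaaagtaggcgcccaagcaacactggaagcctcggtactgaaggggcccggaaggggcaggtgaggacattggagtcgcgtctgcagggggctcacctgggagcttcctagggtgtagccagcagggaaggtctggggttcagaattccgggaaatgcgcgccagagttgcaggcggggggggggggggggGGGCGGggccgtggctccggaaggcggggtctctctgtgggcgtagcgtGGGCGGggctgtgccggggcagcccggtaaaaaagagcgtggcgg
This window is 68% G and C and holds 2 GC boxes and 1 CCAAT match, and it holds no TATAAA and no CACGTG.

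C57BL/6 brains labelled female had 0.882, 0.561, 0.376, 0.629 and 0.310 CPM of *Ada*, and those labelled male had 0.497, 0.394, 0.181, 0.519 and 0.231 CPM. *Winnie* brains labelled female had 0.521, 0.846, 1.40, 0.858 and 0.994 CPM, and those labelled male had 1.46, 1.34, 0.754, 0.840 and 0.708 CPM. Every *Winnie* brain lay above the C57BL/6 median of 0.446 CPM, 4 lay above the highest C57BL/6 brain, and 7 C57BL/6 brains lay below the lowest *Winnie* brain. The means were 0.458 ± 0.207 CPM in C57BL/6 and 0.973 ± 0.321 CPM in *Winnie* mice (SD, n = 10), a ratio of 2.12. On the log2(CPM + 0.5) scale the fold change was 0.62 (SE 0.13, 95% interval 0.35 to 0.89, limma FDR = 0.0112). This size depended on how low values were handled, with 0.97 at a pseudocount of 0.1, 0.43 at a pseudocount of 1, and 1.06 in edgeR on the recovered reads (FDR = 0.013). *Ada* was close to the depth limit, with 3 to 27 reads per brain and a mean of 13.7, for which counting alone gives a CV of 27.1%, and the CV between brains was 45.2% in C57BL/6 and 33.0% in *Winnie* mice.

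Split by labelled sex, *Xdh* averaged 7.03 ± 2.10 CPM in C57BL/6 and 10.8 ± 1.59 CPM in *Winnie* brains labelled female (SD, n = 5), and 5.46 ± 1.22 and 12.4 ± 3.90 CPM in those labelled male (SD, n = 5). The log2 fold change of *Xdh* was 0.63 in brains labelled female (limma FDR = 0.188) and 1.08 in brains labelled male (limma FDR = 0.108), neither past the threshold. *Ada* averaged 0.552 ± 0.226 and 0.924 ± 0.318 CPM in brains labelled female (SD, n = 5), and 0.364 ± 0.153 and 1.02 ± 0.354 CPM in brains labelled male (SD, n = 5). Its log2 fold change was 0.43 (limma FDR = 0.309) under the female label and 0.80 (limma FDR = 0.0502) under the male label. The fold changes under the male label exceeded those under the female label by 0.45 (SE 0.32) for *Xdh* and 0.37 (SE 0.26) for *Ada*, and neither difference passed the test (limma interaction of genotype and labelled sex, chosen after seeing the data, FDR = 0.863 and 0.856). None of the 9 genes had an interaction at FDR under 0.05, beside 0.0697% of all genes. As 9 of 10 C57BL/6 labels but 0 of 10 *Winnie* labels went against *Xist* and *Ddx3y*, each split mostly compared opposite sexes by RNA. These fold changes therefore mix genotype with sex. For the same reason the interaction cannot show whether a genotype difference depends on sex, for these or for all genes.

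Adenosine kinase, the enzyme that competes with *Ada* for adenosine inside the cell, is encoded by *Adk* (ENSMUSG00000039197, chr14:21052574-21448569, plus strand, GRCm38). RefSeq gives *Adk* start windows at separate places, and both are shown because the gene's reads are summed over the transcripts of both. Capitals again mark GC boxes.
Adk first start, chr14:21052324-21052623, plus strand, GRCm38.p6: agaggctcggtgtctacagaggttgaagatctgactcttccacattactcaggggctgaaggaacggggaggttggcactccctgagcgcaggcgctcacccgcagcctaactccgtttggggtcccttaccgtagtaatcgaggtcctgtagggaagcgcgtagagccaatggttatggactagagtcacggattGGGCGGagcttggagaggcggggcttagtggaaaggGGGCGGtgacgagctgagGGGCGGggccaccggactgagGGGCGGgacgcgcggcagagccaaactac
Adk second start, chr14:21075902-21076201, plus strand, GRCm38.p6: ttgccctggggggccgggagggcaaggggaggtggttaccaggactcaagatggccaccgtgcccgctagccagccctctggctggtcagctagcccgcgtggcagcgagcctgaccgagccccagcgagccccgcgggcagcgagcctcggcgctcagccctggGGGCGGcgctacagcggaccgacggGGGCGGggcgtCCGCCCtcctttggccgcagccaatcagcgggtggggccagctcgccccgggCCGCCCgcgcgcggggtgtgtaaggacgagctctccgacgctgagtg
Each *Adk* window holds 4 GC boxes, and the windows are 61.7% and 75% G and C. The first has 2 matches to CCAAT on either strand, of which 1 shares bases with a GC box, and the second has 1.

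*Adk* ranged from 33.7 to 46.4 CPM in C57BL/6 brains (median 38.9) and from 32.4 to 41.2 CPM in *Winnie* brains (median 35.9). The groups overlapped over most of their range, with 9 of 10 *Winnie* brains below the C57BL/6 median. The means were 38.5 ± 3.59 CPM (SD, n = 10) in C57BL/6 and 36.1 ± 2.41 CPM (SD, n = 10) in *Winnie* mice, and the log2 fold change was -0.09 (95% interval -0.19 to 0.01, limma FDR = 0.366).

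RefSeq windows were matched for 8 of the 9 genes, all but *Xdh*, with 12 windows in all. GGGCGG on either strand was found in 35.7% of the 32851 mouse windows of 300 bases and at least 2 matches in 19.5%, and the median window was 52.7% G and C. CCAAT was found in 37.4%, TATAAA in 13.6% and CACGTG in 7.15% of windows on either strand. *Hprt* and *Aprt* each had 3 GC boxes, *Nt5e* had 4, both *Ampd2* windows had 2, and *Gda* and the 3 *Ampd3* windows had 0. No window of these genes held TATAAA. These matches describe letters only, and no binding was measured.

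The ectonucleotidase gene *Nt5e* (ENSMUSG00000032420, chr9:88327197-88372092, plus strand), which supplies extracellular adenosine, had 3.31 to 5.21 CPM in C57BL/6 brains (median 4.25) and 3.79 to 6.32 CPM in *Winnie* brains (median 4.19). The medians were close, and 2 *Winnie* brains lay above all C57BL/6 brains. Its log2 fold change was 0.03 (95% interval -0.15 to 0.21, limma FDR = 0.91), from 60 to 118 reads per brain.

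AMP deaminases turn AMP into IMP and so draw AMP away from adenosine. *Ampd2* (ENSMUSG00000027889, chr3:108074062-108086651, minus strand), the more abundant of the pair per length, had 71.7 to 83.5 CPM in C57BL/6 brains (median 76.1) and 65.8 to 84.1 CPM in *Winnie* brains (median 78.8). The log2 fold change was -0.0046 with a 95% interval of -0.09 to 0.08 (limma FDR = 0.975). *Ampd3* (ENSMUSG00000005686, chr7:110768206-110812405, plus strand), the erythrocyte-type isoform gene, had 24.8 to 31.3 CPM in C57BL/6 brains (median 27.5) and 28.3 to 31.9 CPM in *Winnie* brains (median 30.0). All 10 *Winnie* brains were above the C57BL/6 median and 6 C57BL/6 brains were below the lowest *Winnie* brain. The log2 fold change was 0.12 (95% interval 0.03 to 0.21, unadjusted p = 0.0115, limma FDR = 0.139) and did not pass the threshold. *Ampd3* lies on the same chromosome as *Muc2*, at a distance of 30.9 Mb. Exons of *Ampd2* share 434 bases with 1 other annotated gene. Those of *Ampd3* share at most 196 bases with any 1 of the 3 genes that overlap it, and their total was not taken. These genes lie in part on the other strand, and strand use in the counting is not given in the sources used here. The reads of *Ampd2* and *Ampd3* are therefore uncertain.

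The salvage enzymes that rebuild nucleotides from bases did not pass the threshold. *Hprt* (ENSMUSG00000025630, chrX:52988137-53021659, plus strand), which recovers hypoxanthine and guanine, had 82.9 to 97.4 CPM in C57BL/6 brains (median 91.1) and 77.9 to 98.1 CPM in *Winnie* brains (median 86.2). Of the *Winnie* brains, 4 were below the lowest C57BL/6 brain and 1 was above the highest. The log2 fold change of *Hprt* was -0.06 (95% interval -0.15 to 0.03, limma FDR = 0.529). *Aprt* (ENSMUSG00000006589, chr8:122574635-122576909, minus strand), which recovers adenine, had 12.3 to 17.1 CPM in C57BL/6 brains (median 14.96) and 12.5 to 15.4 CPM in *Winnie* brains (median 13.6). In this gene 9 of 10 *Winnie* brains were below the C57BL/6 median, and 4 C57BL/6 brains were above the highest *Winnie* brain. Its log2 fold change was -0.13 (95% interval -0.25 to -0.02, unadjusted p = 0.0263, limma FDR = 0.208). *Gda* (ENSMUSG00000058624, chr19:21391307-21473445, minus strand), the guanine deaminase that sends guanine to xanthine, had 207.3 to 272.7 CPM in C57BL/6 brains (median 243.7) and 218.7 to 274.3 CPM in *Winnie* brains (median 241.0). *Gda* showed a log2 fold change of 0.02 (95% interval -0.09 to 0.13, limma FDR = 0.908). For the 7 genes other than *Xdh* and *Ada*, the CV between brains ran from 3.62% to 18.5%.

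Levels of different genes were compared as CPM per kilobase of merged annotated exon, given here for C57BL/6 and then *Winnie* brains. *Hprt* was the most abundant, at 69.8 ± 3.56 and 67.2 ± 5.55 (SD, n = 10), followed by *Gda* at 38.8 ± 3.92 and 39.2 ± 3.15 and *Ampd2* at 14.8 ± 0.714 and 14.8 ± 1.22. *Aprt* stood at 9.25 ± 0.909 and 8.39 ± 0.571, *Ampd3* at 4.93 ± 0.405 and 5.36 ± 0.194, and *Adk* at 4.52 ± 0.422 and 4.24 ± 0.283. The lowest levels were those of *Xdh* at 0.681 ± 0.198 and 1.27 ± 0.319, *Nt5e* at 0.508 ± 0.0687 and 0.522 ± 0.0965, and *Ada* at 0.229 ± 0.103 and 0.486 ± 0.161. The genes past the threshold were thus among the 3 least abundant of the 9 per length. In C57BL/6 brains the neighbours *Ampd3* and *Adk*, and *Xdh* and *Nt5e*, overlapped within their SDs, and in *Winnie* brains *Nt5e* and *Ada* did. By the length of the longest transcript, *Adk* at 9.08 came before *Ampd3* at 6.78, and *Nt5e* at 1.09 before *Xdh* at 0.803 in C57BL/6 brains.

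**Figure D2:**
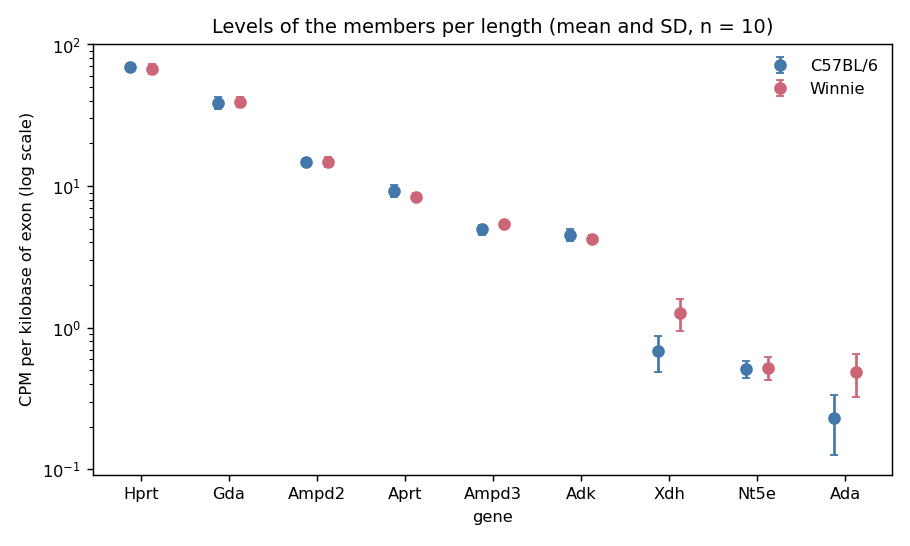
Points show the mean CPM per kilobase of merged exon, and bars the SD of 10 brains, on a logarithmic axis, with C57BL/6 in blue and *Winnie* in red. Levels fall from 69.8 for *Hprt* to 0.229 for *Ada* in C57BL/6 brains. The points of the genotypes lie apart for *Xdh* and *Ada*, and the SD bars overlap for *Ada* but not for *Xdh*.

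The rest of purine metabolism was read from a list of 71 further genes, of which 64 were measured. None passed an FDR under 0.05 in limma, where 10 of 64 (15.6%) had an unadjusted p under 0.05, beside 17.6% of all genes. On the recovered reads edgeR called 1 of 64 (1.56%), beside 2.99% of all genes. DESeq2 called 5 of the 58 to which it gave an adjusted p (8.62%), beside 6.51% of all genes with one. Log2 fold changes were positive for 27 and negative for 37 genes, with a median of -0.01, and ranged from -0.38 for *Adora2a* to 0.19 for *Abcg2*. *Ampd1*, *Nt5c1b*, *Entpd8*, *Slc28a1*, *Slc28a2*, *Slc28a3* and *Slc22a12* were not analysed here.

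**Figure D3:**
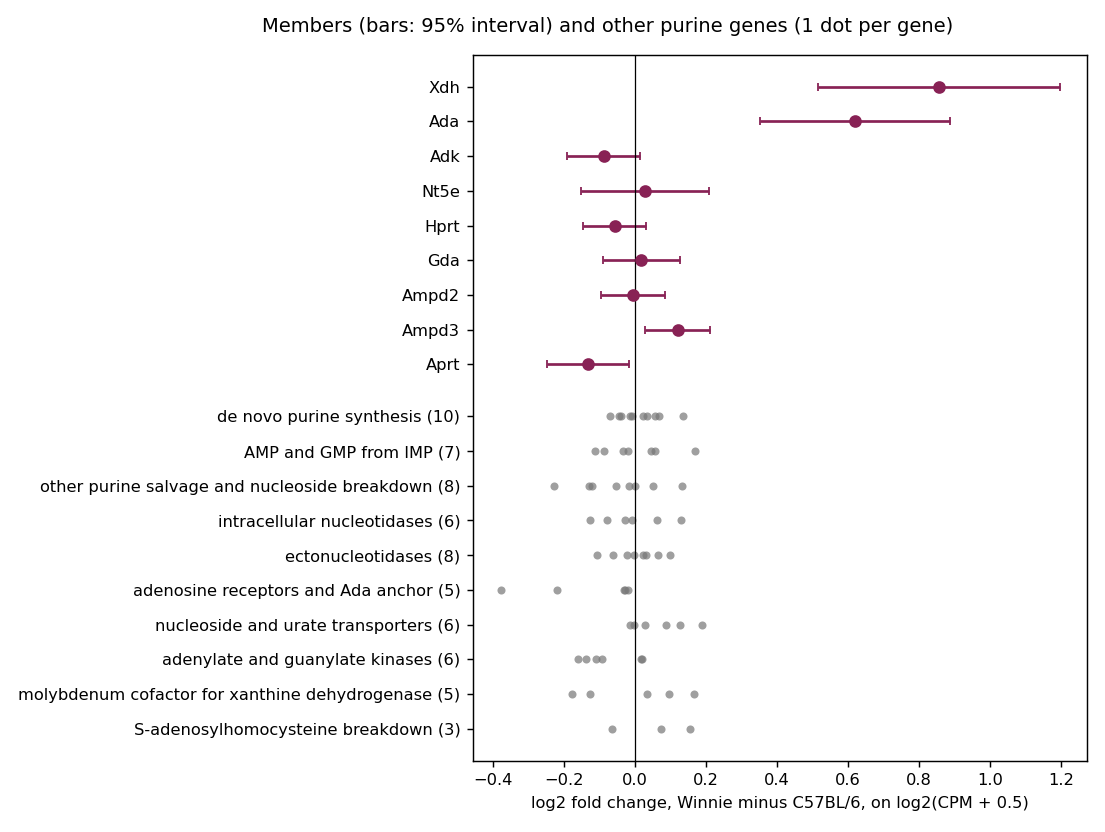
The horizontal axis is the log2 fold change (*Winnie* minus C57BL/6) on log2(CPM + 0.5), with the 9 genes and their 95% intervals above and the 64 other purine genes, 1 dot each, in rows by role below with their number in brackets. *Xdh* at 0.86 and *Ada* at 0.62 lie to the right of all other dots, which run from -0.38 to 0.19.

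In *de novo* synthesis, 0 of 10 genes passed the threshold, and values ran from -0.07 for *Prpsap2*, a regulatory protein of phosphoribosyl pyrophosphate synthetase, to 0.13 for *Ppat*, the committing enzyme of the pathway. *Ppat* had 16.6 ± 1.03 CPM in C57BL/6 and 18.3 ± 1.30 CPM in *Winnie* mice (SD, n = 10), with 6 *Winnie* brains above all C57BL/6 brains (limma FDR = 0.133). Among the 7 genes that lead from IMP to AMP and GMP or back, 0 passed, from -0.11 for the GMP reductase gene *Gmpr2* to 0.17 for the adenylosuccinate synthase gene *Adssl1*. The 8 other salvage and nucleoside breakdown genes had 0 past the threshold. They ran from -0.23 for *Pnp2* to 0.13 for *Uox*, the gene of urate oxidase, which removes urate. *Uox* had only 4 to 21 reads per brain. *Pnp2* was at 0.460 ± 0.286 CPM in C57BL/6 and 0.298 ± 0.130 CPM in *Winnie* mice (SD, n = 10), with few reads, and its close paralog *Pnp* may share reads with it. *Pnp*, the purine nucleoside phosphorylase gene between *Ada* and *Xdh* in the route from adenosine to urate, was singled out after its values were seen and stood at 8.38 ± 1.26 CPM (SD, n = 10) in C57BL/6 and 7.59 ± 1.05 CPM (SD, n = 10) in *Winnie* mice, a log2 fold change of -0.13 (limma FDR = 0.456).

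Of 6 intracellular nucleotidases 0 passed, and the extremes were *Nt5c3b* at -0.13 and *Nt5c1a* at 0.13. Of 8 ectonucleotidases, which act beside *Nt5e*, 0 passed, from -0.11 for *Entpd1* to 0.10 for *Acpp*, which had as few as 2 reads. The adenosine receptors and *Dpp4*, whose product binds adenosine deaminase at the cell surface in some species, were negative in 5 of 5 with 0 past the threshold. *Adora2a*, the receptor gene that marks striatal neurons, had a log2 fold change of -0.38 (SE 0.45, limma FDR = 0.725), and its values spread from 5.74 to 46.1 CPM in C57BL/6 and from 4.68 to 38.5 CPM in *Winnie* brains. The summed striatal projection neuron markers also ran widely, from 564.3 to 1581 CPM in C57BL/6 and from 536.7 to 1580 CPM in *Winnie* brains, and all 10 of these markers had negative fold changes with 0 past the threshold. Their part in the *Adora2a* value was not tested. *Adora1*, the gene of the inhibitory A1 receptor, had a log2 fold change of -0.02.

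Nucleoside and urate transporters had 0 of 6 past the threshold, from -0.01 for *Slc29a2* to 0.19 for *Abcg2*, an efflux pump of the blood-brain barrier that also carries urate. *Abcg2* had 11.7 ± 1.09 CPM in C57BL/6 and 13.5 ± 1.65 CPM in *Winnie* mice (SD, n = 10; limma FDR = 0.112). The 6 adenylate and guanylate kinases had a median of -0.10, with *Ak3* highest at 0.02 and 0 past the threshold. Of them 3 were negative at an unadjusted p under 0.05 in limma, beside 1390 of all 17211 genes. In either direction the count was 10 of the 64 genes (15.6%), beside 17.6% of all genes. The molybdenum cofactor, without which xanthine dehydrogenase is inactive, is made by 5 genes, of which 0 passed. *Mocs2*, the molybdopterin synthase gene, came nearest of all 64 genes, with 31.7 ± 2.59 CPM in C57BL/6 and 28.0 ± 2.08 CPM in *Winnie* mice (SD, n = 10), a log2 fold change of -0.18 (limma FDR = 0.0536), and 0 *Winnie* brains above the C57BL/6 median. *Mocos*, which sulfurates the cofactor of *Xdh*, was at 0.17 (limma FDR = 0.415). S-adenosylhomocysteine breakdown is another source of adenosine. The 3 genes listed under it, *Ahcy* and the related *Ahcyl1* and *Ahcyl2*, ran from -0.07 for *Ahcyl1* to 0.16 for *Ahcy*, with 0 past the threshold. Whether *Ahcyl1* and *Ahcyl2* act in that breakdown was not tested.

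Variation from brain to brain within a genotype was also examined, as removing each genotype's mean leaves out the contrast that chose the genes. Over 20 brains, 0 of the 36 pairs of the 9 genes passed an adjusted p under 0.05 (two-sided permutation within genotype, 100000 resamples), by Pearson's r or Spearman's rho. *Xdh* and *Ada* had r = 0.44 (permutation p = 0.0586, adjusted p = 0.352) and rho = 0.42, with r of 0.47 in C57BL/6 and 0.41 in *Winnie* mice and 0.46 without the 2 brains farthest from the *Xdh* median. The pairs of largest r were *Ampd3* with *Aprt* at -0.61 (permutation p = 0.0124, adjusted p = 0.224) and *Adk* with *Hprt* at 0.54 (permutation p = 0.00847, adjusted p = 0.224). Without C57BL/6 replicate 4, *Ampd3* and *Aprt* reached -0.76 with a permutation adjusted p of 0.0277.

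**Figure D4:**
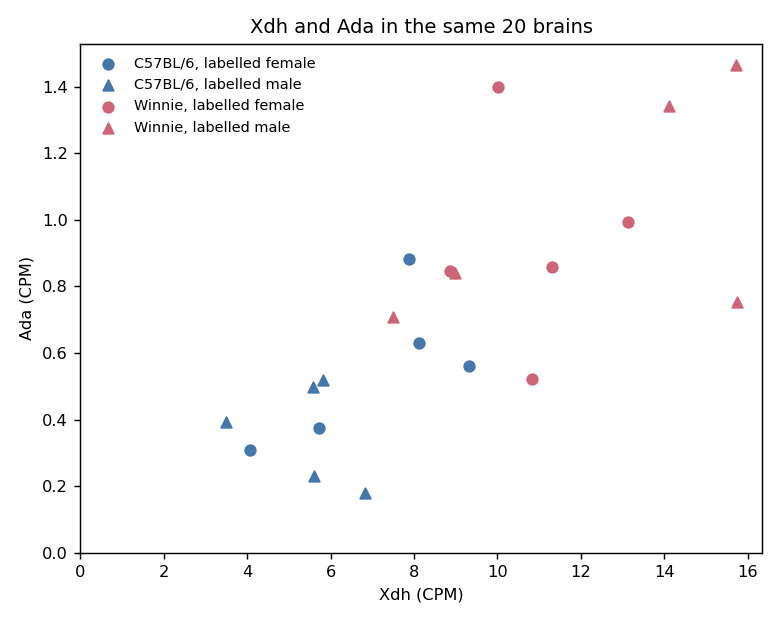
Each point is a brain, with *Xdh* in CPM on the horizontal and *Ada* in CPM on the vertical axis, C57BL/6 in blue, *Winnie* in red, and the shape giving the labelled sex. *Winnie* brains lie towards the upper right, and within a genotype the spread is wide, with r of 0.47 in C57BL/6 and 0.41 in *Winnie* mice.

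Cell type markers were summed per brain and set beside the genes in the same way. Endothelial markers, 12 of 12 measured, summed to 300.2 to 396.3 CPM in C57BL/6 and 358.4 to 408.7 CPM in *Winnie* brains. Within this list *Slc2a1*, the glucose transporter of the blood-brain barrier, was higher (log2 fold change 0.45, limma FDR = 0.00551) and the tight junction gene *Cldn5* was lower (-0.47, limma FDR = 0.00331). Without *Slc2a1*, left out after its values were seen, the other 11 summed to 206.5 to 286.3 CPM and 229.4 to 274.1 CPM. Of the 12, 8 had positive and 4 had negative log2 fold changes. Choroid plexus markers, 10 of 10, summed to 771.5 to 1089 CPM and 528.1 to 1073 CPM, with 9 negative fold changes of 10 and 0 past the threshold. Microglial markers, 10 of 10, summed to 353.3 to 392.2 CPM and 320.5 to 416.6 CPM, and red blood cell markers, 5 of 5, to 93.6 to 208.4 CPM and 40.6 to 149.8 CPM, each with 0 past the threshold. Fold changes were negative for 9 of 10 microglial and 5 of 5 red blood cell markers. Fibroblast markers of the meninges, 10 of 10, summed to 175.9 to 244.5 CPM and 196.2 to 267.6 CPM, and the organic anion transporter gene *Slc22a6* among them was higher (0.39, limma FDR = 0.0216), with 9 positive fold changes of 10. Neuronal markers, 8 of 8, summed to 6758 to 7657 CPM and 6809 to 7435 CPM, oligodendrocyte markers, 8 of 8, to 6604 to 8377 CPM and 6622 to 7920 CPM, and astrocyte markers, 8 of 8, to 3839 to 4607 CPM and 3975 to 4604 CPM, with the astrocyte connexin gene *Gjb6* higher (0.22, limma FDR = 0.0384). Fold changes were negative for 5 of 8 neuronal, 7 of 8 oligodendrocyte and 3 of 8 astrocyte markers. No marker was at 0 in any brain, but some were scarce, such as the microglial marker *Aif1* with a mean of 1.91 CPM. The lowest means were 289 CPM among neuronal (*Gad2*), 66.1 CPM among oligodendrocyte (*Ugt8a*) and 55.1 CPM among astrocyte markers (*Aldh1l1*). The part of any cell type in the *Xdh* and *Ada* values was not tested.

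Of the 81 pairs of a gene and a marker list, 0 passed an adjusted p under 0.05 within genotype. *Ada* and the choroid plexus sum had r = -0.64 (permutation p = 0.00286, adjusted p = 0.167), with -0.60 in C57BL/6 and -0.71 in *Winnie* mice. *Nt5e* and the microglial sum had r = 0.60 (permutation p = 0.0114, adjusted p = 0.281), and *Ampd2* and the neuronal sum had r = -0.55 (permutation p = 0.00411, adjusted p = 0.167). The adjusted p was 0.0478 for *Ada* and choroid plexus without *Winnie* replicate 5, and 0.0227 for *Ampd2* and neurons without *Winnie* replicate 6 (permutation). With endothelial markers, *Xdh* had r = 0.36 and *Ada* r = 0.42 (permutation adjusted p = 0.484 and 0.359). This sum includes *Slc2a1*, which alone had r = 0.79 with *Ada*, and the correlations without it were not tested.

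**Figure D5:**
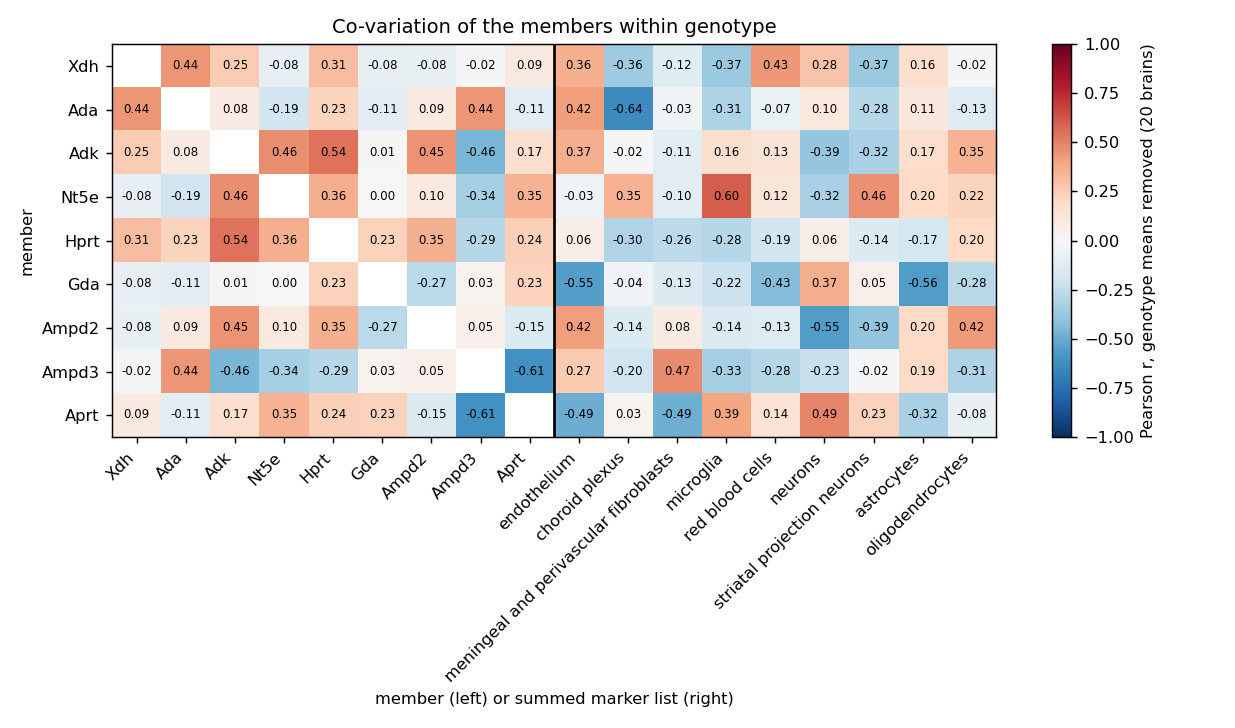
Each cell gives Pearson's r over 20 brains after removal of genotype means, for pairs of the 9 genes on the left and for each gene with a summed marker list on the right, in red for positive and blue for negative values. The values run from -0.64 for *Ada* with choroid plexus to 0.60 for *Nt5e* with microglia, and none passed the adjusted test with all brains.

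The genes whose brain-to-brain pattern within genotype was most like that of *Xdh*, among 15167 genes with a mean of at least 1 CPM, were *Paqr5* (r = 0.91), *Hif3a* (0.81), *Tnxb* (0.79), *Zbtb16* (0.79) and *Fkbp5* (0.79), over 20 brains that share library and depth across genes. For *Paqr5*, a gene of the progestin and adipoQ receptor family, r was 0.90 in C57BL/6 and 0.92 in *Winnie* brains, and its level was 4.27 CPM in C57BL/6 and 5.99 CPM in *Winnie* mice (log2 fold change 0.45, limma FDR = 0.0255). *Hif3a*, a hypoxia-inducible factor gene, had 7.99 and 18.1 CPM (1.17, limma FDR = 0.0101). *Tnxb*, a tenascin of the extracellular matrix, was higher by 0.36 (limma FDR = 0.0131), whereas *Zbtb16*, a transcription factor gene, at 0.42 (limma FDR = 0.19) and the co-chaperone gene *Fkbp5* at 0.43 (limma FDR = 0.0874) did not pass the threshold.

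The genes most like *Ada*, among 15168, were *Slc2a1* (r = 0.79), *Tlr7* (0.77), *Map3k6* (0.76), *Klf15* (0.75) and *Glns-ps1* (0.71). For *Slc2a1*, r was 0.85 in C57BL/6 and 0.74 in *Winnie* brains, and 0.70 without the 2 brains farthest from the *Ada* median. *Slc2a1* had 95.6 ± 15.5 CPM (SD, n = 10) in C57BL/6 and 130.2 ± 12.3 CPM (SD, n = 10) in *Winnie* mice. The kinase gene *Map3k6* (0.58, limma FDR = 0.0157) and the transcription factor gene *Klf15* (0.39, limma FDR = 0.02) were higher in *Winnie* brains. *Tlr7*, a receptor for single-stranded RNA, at 0.28 (limma FDR = 0.072) and *Glns-ps1*, a glutamine synthetase pseudogene that may share reads with its parent gene, at 0.16 (limma FDR = 0.167) did not pass. These r are descriptions, as the highest of many, and carry no test.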

How the data were processed

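Brain polyA RNA of 20 mice was sequenced by the authors as paired reads, mapped to GRCm38 in the RNAsik pipeline and counted per gene with featureCounts. The aligner's name and the strand setting are not given in the sources used here. The authors deposited CPM made with Degust, which scaled each brain to the same total over 17211 genes. All values were whole reads to within a tolerance of 0.05, so reads were recovered (16540303 to 23923769 per brain), and intervals from them cover counting error only.

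Samples were grouped by labelled genotype. Genes were compared with limma 3.58.1 (trend, robust, R 4.3.3) on log2(CPM + 0.5), with Benjamini-Hochberg FDR over all genes and no further filter on low values. The lowest gene mean among the deposited values was 0.229 CPM, so all genes here means the 17211 listed ones. Other settings tried were a pseudocount of 0.1 or 1, genes with a mean of at least 1 CPM, other scalings, covariates, a replicate block, brains left out, labelled sexes alone, DESeq2 1.42.0 or edgeR 4.0.16 on recovered reads, and the threshold of the study's methods (FDR under 0.001, absolute log2 fold change at least 0.585). That threshold was applied to the limma fit, whereas the study used edgeR. Replicates are separate mice, the counts of each brain differed from every other brain of its genotype beyond sampling noise, and the scripts were tested on simulated data.

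Correlations used log2(CPM + 0.5) with genotype means removed, and permutation within genotype (scipy 1.17.1, 100000 resamples). Coordinates and exon lengths came from GENCODE M21, which matched 17128 genes, and start windows from RefSeq (GRCm38.p6). The members and lists were chosen with earlier results of these data known. Named besides them are, in each role group, the gene with the highest and the lowest log2 fold change (1 of which is not reported here), the 5 genes most like *Xdh* and *Ada*, marker genes past the threshold, *Xist*, *Ddx3y* and *Muc2*. *Pnp*, *Dpp4* and the genes not analysed were named beyond this rule.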

Additional observations from a re-analysis of the deposited data

Results flagged for a closer look

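Gaps between the highest or lowest brain of a genotype and its nearest neighbour were examined in 76 groups of 10 brains (each gene or marker sum in each genotype), and 4 were large by Dixon's test (5.26%), where chance flags about 1 group in 20. *Adk* reached 46.4 CPM in C57BL/6 replicate 2, with 40.3 CPM in the next brain. Red blood cell markers summed to 208.4 CPM in the same brain, against 129.9 CPM in the next. Microglial markers summed to 416.6 CPM in *Winnie* replicate 9, against 370.5 CPM in the next. *Mocs2* was at 22.7 CPM in *Winnie* replicate 5, where the next lowest *Winnie* brain had 27.0 CPM.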

How the results depend on the processing

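*Xdh* stayed past an FDR under 0.05 in limma with other pseudocounts, scalings, filters and covariates and with each brain left out (log2 fold change 0.78 to 0.92, FDR 0.00602 to 0.0239), as did *Ada* (0.57 to 0.68, FDR 0.00544 to 0.0285) except under a minimum mean of 1 CPM, which leaves it untested. The count of 2 genes past the threshold became 1 with that filter, 1 in DESeq2, which gave *Ada* no adjusted p, 0 in brains labelled female alone, 0 in brains labelled male alone and 0 at the threshold of the study's methods in the limma fit, and it was 2 to 2 with a brain left out. In DESeq2 *Xdh* was past the study's threshold (log2 fold change 0.90, adjusted p = 0.000131).

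Replicate numbers did not pair the brains, with correlations of -0.34 to 0.17 between same-numbered brains. With the replicate block, 1 of the 9 genes passed (*Ada*, FDR = 0.0252; *Xdh* 0.86, FDR = 0.053, limma), and 227 of all genes.

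Over all genes the count of 434 became 6 in brains labelled female, 61 in brains labelled male, 968 in DESeq2 and 0 at the study's threshold in the limma fit. The count at the study's threshold in DESeq2 or in edgeR, the study's tool, was not taken. With a brain left out it ran from 169 to 694, and moved by over 1.5 times without C57BL/6 replicates 3 (238), 5 (169), 8 (250), 9 (270) and 10 (694) and *Winnie* replicates 2 (264), 3 (241), 7 (256) and 8 (216). Of the other purine genes, 1 passed, *Mocs2*, with a minimum mean of 1 CPM, median-ratio scaling, quantile normalization or edgeR, and 5 in DESeq2. With a brain left out the count was 0 to 1, *Mocs2* passing without C57BL/6 replicate 6 or *Winnie* replicate 4.

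Directions turned for *Nt5e* in brains labelled female (-0.047), for *Gda* in brains labelled male (-0.0004), and with brains left out for *Ampd2* (-0.019 to 0.021), *Gda* (-0.0068 to 0.037) and *Nt5e* (-0.024 to 0.055), all close to 0. Pairs past the adjusted p were 0 to 1 with a brain left out in both correlation families. By longest transcript, 5 of the 9 genes kept their place in the order of levels. Smaller sample numbers enter the single-sex fits, and the cause of the other shifts was not tested. With a mean of 13.7 reads, depth limits *Ada* most.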
